A study of Mus musculus with 6 samples.

Results

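The genes described here encode the subunits of the constitutive proteasome, with its regulatory cap, assembly chaperones that carry subunit names, and activators. They were taken by symbol from the deposited counts: protein-coding genes named Psma, Psmb, Psmc, Psmd or Psme with a number, without the interferon-inducible subunits Psmb8, Psmb9 and Psmb10. Of 40 such genes, 39 had at least 10 counts in 3 or more libraries and are the members, out of 21955 gene identifiers measured. The gene left out, Psmb11 (a catalytic subunit of the thymus), had 0 to 5 counts per library. The samples are poly-A RNA of neutrophils, short-lived phagocytes, that were taken from the dura (a sheet of the meninges) of wild-type mice. Social threat exposure came before sampling in all groups. The 3 libraries labelled male and the 3 labelled female are called male 1 to 3 and female 1 to 3 here, by their titles. The labels give no strain, age or sorting markers, and there was no library from unexposed mice. The only comparison the labels allow is between the 2 label groups after exposure.

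Facts of the whole series bear on every value below. Libraries held 17098026 to 20778410 counts. Whether each library is a different animal is not in the labels, and the p-values therefore reflect only how these 6 libraries vary, possibly for technical reasons. The sum of 4 Y-linked genes was 313 ± 5.88 CPM (counts scaled to a common library size) in the libraries labelled male and 322 ± 8.94 in those labelled female (SD, n = 3), which goes against the label female, so groups are named by label only. Of the neutrophil markers examined, 11 were present, and their summed level was 57048 to 63066 CPM in the libraries labelled male and 63614 to 81974 in those labelled female. Of these 11 markers 7 rose in the libraries labelled female and none fell, among them Retnlg (2.38-fold) and Mmp8 (1.95-fold). Of 6 markers of early neutrophil precursors only 1 was called, Mpo, which fell from 1869 ± 36.9 to 1619 ± 124 CPM (adjusted p = 0.0315 by edgeR). The changes of 3 of these 6 were above 0, and their median log2 change was -0.017. The proliferation gene Mki67 was at 987 ± 15.7 and 1011 ± 87.8 CPM (adjusted p = 0.767). Female 3 stood apart from the other libraries labelled female, with a chi-square per degree of freedom of 14.1 and 17.3 against them, where these differed from each other by 5.32. Mitochondrially encoded transcripts took 10.7 to 13.1% of counts in the libraries labelled male and 6.42 to 8.49% in those labelled female. Of 6 B cell markers 5 fell in the libraries labelled female, as did 5 of 6 dendritic cell markers. The list sums were 225 to 282 and 276 to 289 CPM against 136 to 190.3 and 185 to 193. Of 5 erythroid markers 3 rose, with sums of 17.8 to 23.3 against 32.8 to 63.3 CPM. The part of these differences in the results below was not tested.

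The proteasome is the protease that degrades proteins tagged with ubiquitin. Its 20S core is a barrel of stacked alpha and beta rings, and the proteolytic sites of Psmb5, Psmb6 and Psmb7 face the inside. The 19S cap has a base with ATPases that unfold the substrate and a lid that removes ubiquitin. Interferon replaces the catalytic subunits by Psmb8, Psmb9 and Psmb10, which changes the peptides that are made for MHC class I. When proteasome activity falls short, the transcription factor NRF1 (gene Nfe2l1) raises the subunit genes together through antioxidant response elements.

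The proteasome genes differed little between the label groups. Of 39 members tested, 1 (Psmc6) was higher in the libraries labelled female and none was lower at an adjusted p under 0.05 by edgeR's quasi-likelihood test over 11903 genes. At an unadjusted p under 0.05 by edgeR, 6 of the 39 members were higher and 0 lower, where 3282 of the 11903 genes passed in either direction. DESeq2 called 2 members higher and 0 lower. Of the genes that DESeq2 called among 11607, 54.2% were higher. Over all alternatives to the test, DESeq2 among them, 439 to 1439 genes were called higher and 467 to 1269 lower. At an adjusted p under 0.05 by edgeR, 7.29% of all genes were called higher, 6.62% lower and 13.9% in either direction. When 1 library was left out, the calls over all genes ranged from 439 higher and 467 lower (without male 3) to 1439 higher and 1269 lower (without female 3). Those of the members ranged from 0 to 5 higher and from 0 to 1 lower, and the upper ends again came without female 3.

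The changes were small as well as mostly uncalled. On the log2 scale, labelled female minus labelled male, the median change of the members was 0.07, with 31 of 39 above 0, where the median over all genes was 0.00163 and 50.3% were above 0. Without female 3 the median of the members was 0.05, with 26 of 39 above 0. The median size of the change was 0.09 in the members and 0.14 over all genes. For 37 of 39 members, and for 41.0% of all genes, the 95% interval of the change lay within 1.25-fold, a limit chosen after the values were seen. The exceptions were Psma8 and Psmd1. For 10 members no library of one group lay within the range of the other, 9 higher and 1 lower, where the groups of 30.9% of all genes did not overlap (15.9% higher and 15% lower). Libraries of a group were also alike. The median coefficient of variation per member was 3.33% (labelled male) and 5.30% (labelled female), against 6.67% and 8.21% over all genes. The genes as a whole were not matched to the members by level. Members other than Psma8 averaged 20.4 CPM (Psmd9) or more, and the median SE was 0.066 in the members and 0.096 over all genes. The part of level in these contrasts was not tested.

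**Figure D1:**
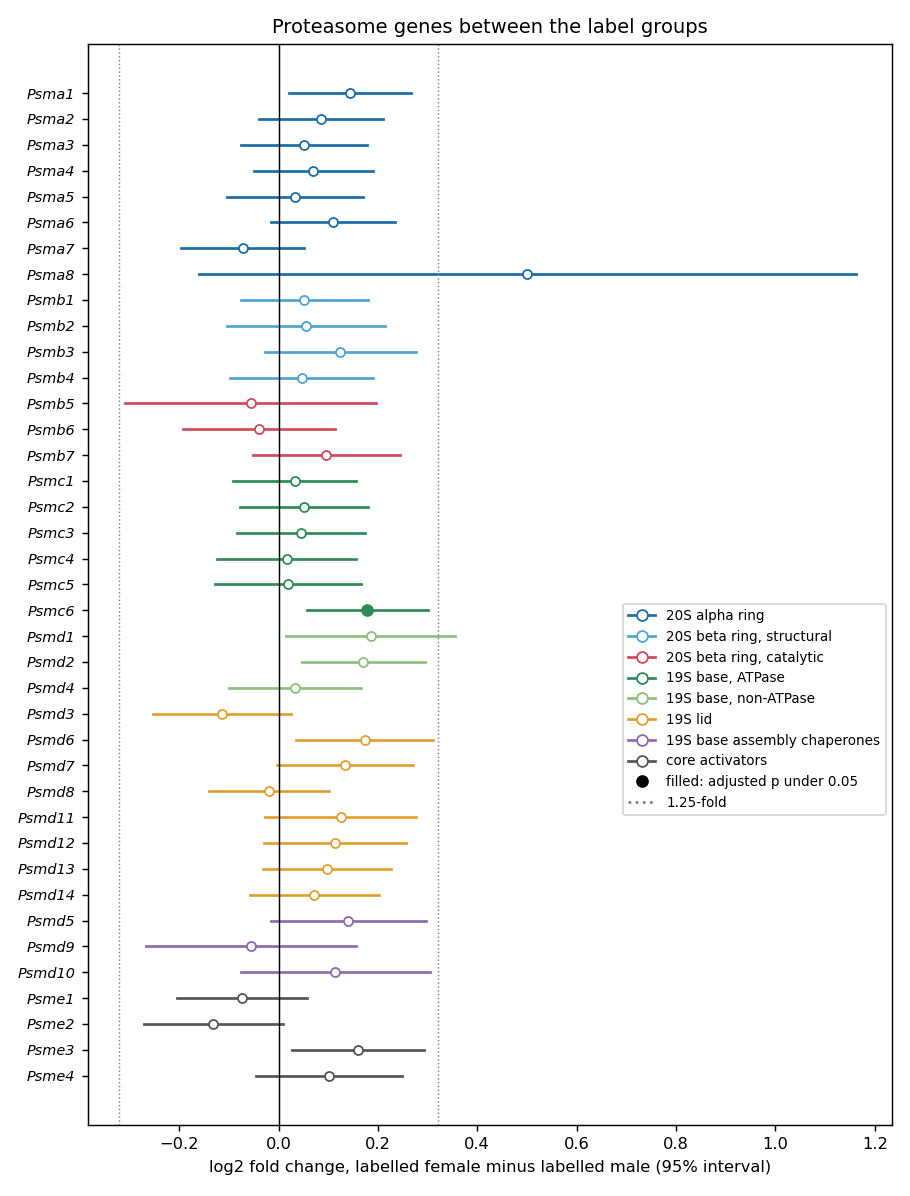
Log2 fold change of each of the 39 members, labelled female minus labelled male (x axis), with its 95% interval, grouped and coloured by subcomplex. Most points lie between 0 and 0.2, 37 intervals stay within the dotted 1.25-fold lines, and the filled point is Psmc6, the only called member.

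Summed over the 39 members, transcripts of the set reached 3892, 3780 and 3846 CPM in male 1 to 3 and 3882, 3973 and 4148 CPM in female 1 to 3. The groups overlapped, since female 1 lay below male 1, and female 3 was the highest library. As a raw share of all counts the members took 0.379 ± 0.00369% in the libraries labelled male and 0.404 ± 0.00977% in those labelled female (SD, n = 3), without overlap. That share has the mitochondrially encoded transcripts in its denominator. In bulk RNA, fewer cells of a type and less RNA per cell cannot be told apart.

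Psmc6 encodes an ATPase of the 19S base. It was at 112, 115 and 109 CPM in male 1 to 3 and at 126, 126 and 129 CPM in female 1 to 3, so every library labelled female lay above every library labelled male. It rose 1.13-fold (log2 0.18, SE 0.059, adjusted p = 0.0461 by edgeR's quasi-likelihood test). The call stood close to the threshold. It was lost without male 1, 2 or 3 (adjusted p = 0.138, 0.0981 and 0.184), without female 1 or 2 (0.0760 and 0.0915) and when mitochondrially encoded genes were removed before the fit (0.0515), while the change stayed between 0.16 and 0.20.

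The other ATPases, Psmc1 to Psmc5, which form the ring with Psmc6, had changes from 0.02 (Psmc4) to 0.05 (Psmc2) on the log2 scale and adjusted p from 0.639 to 0.904. The levels of these 5 genes in the groups overlapped. The ATPases as a group summed to 649 ± 18.3 CPM in the libraries labelled male and 677 ± 24.9 in those labelled female (SD, n = 3).

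The promoters of Psmc6 and of the catalytic genes Psmb5 and Psmb6 are shown because each holds the letters of an antioxidant response element, the element through which NRF1 is known to act. The bases are the 250 before the RefSeq start, 5′ to 3′ on the strand of the gene, on GRCm38.p6, an older build than that of the counts. Capitals mark TGACNNNGC or CCGGAAG (the core of an ETS site) on either strand.
Psmc6 (chr14:45329574-45329823, strand plus): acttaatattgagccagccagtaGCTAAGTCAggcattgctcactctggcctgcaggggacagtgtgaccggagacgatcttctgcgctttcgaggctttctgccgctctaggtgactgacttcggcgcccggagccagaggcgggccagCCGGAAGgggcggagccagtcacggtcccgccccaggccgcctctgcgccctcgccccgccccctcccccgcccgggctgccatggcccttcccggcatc
Psmb5 (chr14:54617996-54618245, strand minus): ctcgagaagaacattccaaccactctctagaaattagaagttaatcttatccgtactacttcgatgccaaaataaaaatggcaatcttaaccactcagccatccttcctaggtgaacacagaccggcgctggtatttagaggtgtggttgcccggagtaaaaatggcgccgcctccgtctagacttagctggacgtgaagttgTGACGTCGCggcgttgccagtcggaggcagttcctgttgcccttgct
Psmb6 (chr11:70525107-70525356, strand plus): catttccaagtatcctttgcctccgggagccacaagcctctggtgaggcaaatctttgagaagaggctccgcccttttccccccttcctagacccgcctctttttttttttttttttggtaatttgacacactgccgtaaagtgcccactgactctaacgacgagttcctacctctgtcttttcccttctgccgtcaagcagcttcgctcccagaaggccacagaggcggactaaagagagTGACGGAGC
RefSeq windows were matched for 32 of the 39 members. In the 250 bases before the start, TGACNNNGC was found on either strand for 5 of 32 genes (Psmb5, Psmb6, Psmc6, Psmd9 and Psmd12), in 14.3% of the members' windows and 10.2% of all windows. The letters CCGGAAG were in 34.3% of the members' windows against 6.91% of all, and those of a CCAAT box in 34.3% against 33.8%. The interferon-stimulated response element was matched in 8.57% against 2.98%, and TTCNNNGAA (a gamma activated site) in 0% against 7.02%. The first match of Psmc6 lies 227 to 219 bases before the start, that of Psmb5 47 to 39 and that of Psmb6 9 to 1, and no matches overlap in the windows shown. Of these genes Psmc6 rose, and Psmb5 and Psmb6 had changes of -0.06 and -0.04 (log2). A match is a run of letters and says nothing of binding.

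The non-ATPase subunits of the base among the members are Psmd1, Psmd2 and Psmd4. Of the subcomplexes of members, this group had the highest sum relative to the libraries labelled male. It was 330 ± 3.51 CPM against 361 ± 4.57 (SD, n = 3), a ratio of 1.09 without overlap. Psmd2, a scaffold that receives ubiquitin-binding shuttle factors, was at 146, 161 and 155 CPM in male 1 to 3 and at 169, 176 and 175 CPM in female 1 to 3. Its groups did not overlap, and its change (log2 0.17, SE 0.059) missed the threshold narrowly with adjusted p = 0.0582 by edgeR. It passed without female 3 (0.0207), in DESeq2 (0.0392) and with no filter on low counts (0.0462). It missed without male 1, 2 or 3 (adjusted p = 0.251, 0.0900 and 0.157 by edgeR) or female 1 or 2 (0.0703 and 0.156). Without mitochondrially encoded genes it missed as well (0.0642). Psmd1, the other large scaffold of the base, had the largest change of this group, 0.19 (SE 0.081, adjusted p = 0.142 by edgeR). It was at 64.7, 62.1 and 64.3 CPM in male 1 to 3, at 79.7 and 76.3 CPM in female 1 and 2, and at 61.3 CPM in female 3. Female 3 was thus the lowest of the 6 libraries for Psmd1, and without it the change was 0.29 with adjusted p = 0.000577. Psmd4, a ubiquitin receptor, had a change of 0.03 (adjusted p = 0.783). Adrm1, a ubiquitin receptor of the base that is no member by its symbol, went the other way. It was at 57.3 ± 1.41 CPM in the libraries labelled male and 52.6 ± 2.76 in those labelled female, without overlap (log2 -0.12, adjusted p = 0.267 by edgeR).

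The lid subunits had changes from -0.11 (Psmd3) to 0.17 (Psmd6) and adjusted p from 0.0908 to 0.869 by edgeR. Psmd6 was at 88.3, 76.8 and 85.4 CPM in male 1 to 3 and at 90.3, 95.4 and 96.7 CPM in female 1 to 3, a change of 0.17 (SE 0.067, adjusted p = 0.0908). The groups of Psmd6 did not overlap, and male 2 was the lowest library. Psmd14, the deubiquitinase of the lid, was at 107 ± 5.14 CPM in the libraries labelled male and 112 ± 3.97 in those labelled female (SD, n = 3; log2 0.07, adjusted p = 0.492 by edgeR). Psmd3, named after its values were seen, was the only member with every library labelled female under every library labelled male, at 73.0, 65.8 and 67.7 CPM against 61.9, 63.4 and 65.4 (adjusted p = 0.283 by edgeR). The lid summed to 727 ± 20.5 and 762 ± 19.9 CPM, and the groups overlapped.

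The 3 members that are chaperones of base assembly, Psmd5, Psmd9 and Psmd10, were among the members of low level. Psmd5 had the largest change, 0.14 (SE 0.075, adjusted p = 0.234 by edgeR), with 45.5, 46.4 and 46.2 CPM in male 1 to 3 and 54.0, 46.2 and 52.1 CPM in female 1 to 3. Female 2 sat among the libraries labelled male. Psmd10 (gankyrin), the only X-linked member, changed by 0.11 (adjusted p = 0.446), and Psmd9 by -0.05 (adjusted p = 0.775).

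The alpha ring, which gates the entry of substrates, summed to 915, 905 and 910.1 CPM in male 1 to 3 and 922, 945 and 979 CPM in female 1 to 3, without overlap and with a ratio of 1.04. Its ubiquitous subunits had changes from -0.07 (Psma7) to 0.14 (Psma1, adjusted p = 0.113 by edgeR). Psma1, Psma4 and Psma6, 3 of the 8 genes of the ring, were higher without overlap. Over all genes 15.9% were higher without overlap and 30.9% had no overlap in either direction. Psma8, a testis form of the subunit Psma7, had 21 to 53 counts per library. At 1.19, 1.54 and 1.73 CPM in male 1 to 3 and 1.59, 2.67 and 2.03 CPM in female 1 to 3, it had the largest change of any member, 0.50, and the largest error (SE 0.32, adjusted p = 0.324 by edgeR). A difference in Psma8 was not detectable at this depth, and the labels do not describe the counting of reads shared with Psma7.

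The structural beta subunits Psmb1 to Psmb4 summed to 499 ± 6.45 CPM in the libraries labelled male and 522 ± 48.1 in those labelled female (SD, n = 3). The larger spread came from female 1, at 478 CPM, and female 3, at 574 CPM. Psmb3 had the largest change of these, 0.12 (SE 0.073, adjusted p = 0.284 by edgeR), and it rested on female 3. Its levels were 108, 101 and 108 CPM in male 1 to 3 and 108, 108 and 130.3 CPM in female 1 to 3, and without female 3 its change was 0.03.

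The constitutive catalytic subunits showed no called difference either. Psmb5, which cuts after hydrophobic residues (chymotrypsin-like activity), was at 26.0, 21.7 and 23.9 CPM in male 1 to 3 and at 19.5, 21.02 and 28.4 CPM in female 1 to 3. Female 3 was the highest and female 1 the lowest of the 6 libraries, and the change was -0.06 (SE 0.12, adjusted p = 0.808 by edgeR). Without female 3 it was -0.24, still uncalled. Psmb6, the caspase-like subunit, was at 90.7, 85.3 and 94.8 CPM in male 1 to 3 and at 81.7, 83.0 and 98.6 CPM in female 1 to 3, again with female 3 on top (log2 -0.04, adjusted p = 0.776). Psmb7, the trypsin-like subunit, was at 50.9, 55.4 and 55.04 CPM and at 58.5, 60.1 and 53.9 CPM, with female 3 the lowest of its group (log2 0.10, adjusted p = 0.410). The intervals of the fold change were 0.807 to 1.146 for Psmb5, 0.875 to 1.08 for Psmb6 and 0.965 to 1.18 for Psmb7.

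**Figure D2:**
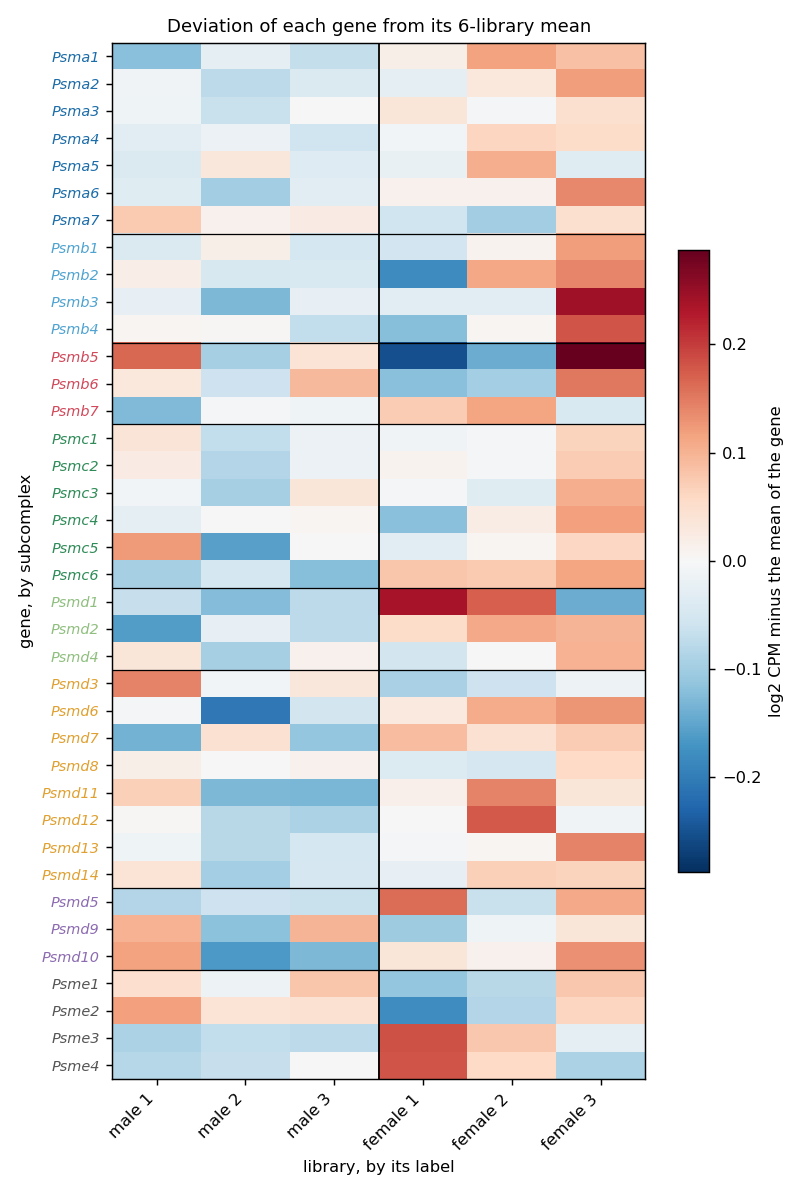
Deviation of the log2 CPM of 38 members (rows, by subcomplex; Psma8 left out for its low counts) from the mean of each gene over the 6 libraries (columns). Red is above and blue below the mean. The column of female 3 differs from those of female 1 and 2 for Psmb3, Psmb5, Psmb6 and Psmd1.

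The activators, which open the core in place of the cap, had changes on both sides of 0, and none was called with all 6 libraries. Psme1 and Psme2 form the interferon-inducible PA28 ring. Psme2 was at 111, 105 and 106 CPM in male 1 to 3 and at 90.5, 96.6 and 107 CPM in female 1 to 3 (log2 -0.13, SE 0.067, adjusted p = 0.215 by edgeR). Psme1 was at 171, 164 and 175 CPM and at 153, 157 and 175 CPM (log2 -0.07, adjusted p = 0.490). For both genes female 1 and 2 lay below all libraries labelled male, and female 3 lay among them. Without female 3 the change of Psme2 was -0.20 with adjusted p = 0.0123. Its near-identical copy Psme2b, at 36.3 CPM on average, changed by -0.11 (adjusted p = 0.393), and reads shared between the copies may have been split or dropped in counting.

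Psme3 and Psme4 had changes above 0. Psme3, the nuclear PA28 gamma, was at 104, 106 and 105 CPM in male 1 to 3 and at 126, 117 and 109 CPM in female 1 to 3 (log2 0.16, SE 0.064, adjusted p = 0.106 by edgeR). Psme4 (PA200), which acts on histones, was at 75.6, 76.5 and 80.0 CPM and at 90.7, 83.3 and 75.2 CPM (log2 0.10, SE 0.070, adjusted p = 0.373). In both genes female 1 was the highest library and female 3 the lowest of its group. Without female 3, Psme3 changed by 0.21 (adjusted p = 0.00513) and Psme4 by 0.17 (adjusted p = 0.0424).

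Female 3 departed from female 1 and 2 in a way that went with transcript length. Its log2 CPM minus the mean of the others ran from 0.49 for Psmb5, with a principal transcript of 899 bases, to -0.35 for Psmd1, of 3112 bases. Psmb3 (766 bases) was at 0.28 and Psmb6 (798 bases) at 0.26, while Psme4 (6491 bases) was at -0.21. Spearman's rho between transcript length and this difference was -0.60 across 38 members and -0.37 across 11865 genes. For female 2 minus female 1 it was -0.34 and -0.19, and for male 3 minus male 1 and 2 it was -0.04 and -0.01. Between the label groups, rho of length with the log2 fold change from all 6 libraries was 0.42 across the 38 members. Across the 11865 genes it was 0.09. The part of length in the changes between groups was not tested. These are descriptions across genes that share the same libraries and scaling. Several members did not follow the order. Among them, Psmb7 (1160 bases, -0.14) and Psma5 (1239 bases, -0.07) lay below 0. Psma2 (2911 bases, 0.12) and Psmd5 (4397 bases, 0.06) lay above 0. Without female 3, edgeR called 6 of the 39 members, and of 12078 genes it called 1439 higher and 1269 lower. Of these 6 members, 5 were not called with all libraries. Psmd1, Psmd2, Psme3 and Psme4 among them have transcripts of 2664 to 6491 bases, and Psme2 has 962. The part of length in those calls was not tested.

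**Figure D3:**
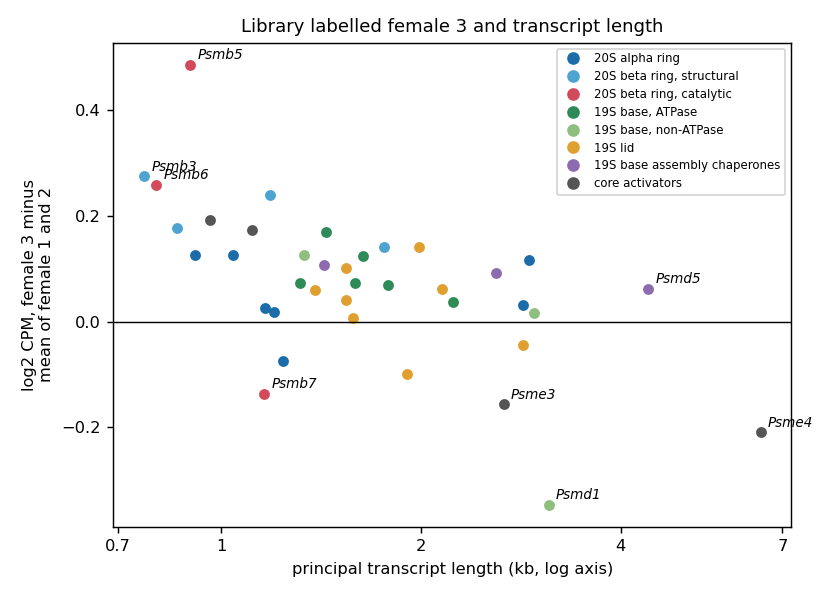
Log2 CPM of female 3 minus the mean of female 1 and 2 (y axis) against the principal transcript length in kb (log x axis) for 38 members, coloured by subcomplex. Short transcripts such as Psmb5, Psmb3 and Psmb6 lie above 0 and Psmd1, Psme3 and Psme4 below it. Exceptions include Psmb7, a short transcript below 0, and Psmd5, a long one above it.

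Members of the same particle differed widely in transcript level, far more than any member differed between groups. Levels are compared as CPM per kb of the principal transcript, as a mean over the 6 libraries (SD, n = 6). Psma7 was the highest at 200.4 ± 9.09 and Psmd9 the lowest after Psma8, at 7.86 ± 0.517. Within the alpha ring, where each subunit is built in equally, levels ran from 28.8 for Psma3 to 200.4 for Psma7. The ATPases ran from 51.1 for Psmc2 to 90.03 for Psmc3 and the structural beta subunits from 85.5 for Psmb1 to 146 for Psmb4. Of the catalytic subunits, Psmb6 was at 112 ± 8.51, Psmb7 at 48.0 ± 2.82 and Psmb5 at 26.0 ± 3.72. Psmb5 was the lowest core subunit apart from Psma8, next to Psma3 (28.8 ± 0.782), from which it did not differ beyond its spread. The base chaperones, Psme4, Psmd11 and Psmd1 lay at the low end with 7.86 to 21.9. These levels depend on the annotated length. With all annotated exons merged, Psma7 fell by rank from 1 to 7 of 39, Psmb7 (16.3) came under Psmb5 (26.0), and the last ranks stayed with Psmd5 at 37, Psmd9 at 38 and Psma8 at 39.

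**Figure D4:**
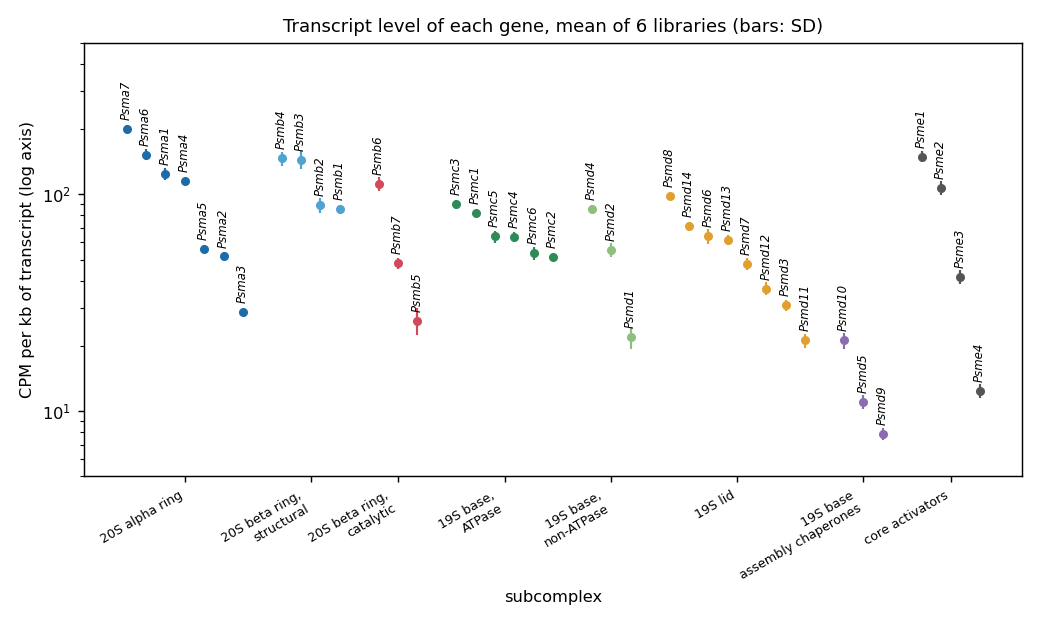
Transcript level of 38 members in CPM per kb of principal transcript (log y axis), mean of 6 libraries with SD bars, ordered by level within each subcomplex (x axis). Levels run from 7.86 (Psmd9) to 200.4 (Psma7), and the ATPases lie between 51.1 and 90.03.

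All 3 interferon-inducible catalytic subunits, which are no members, had changes below 0, where the median of the members was 0.07. Of the constitutive catalytic subunits, Psmb5 (-0.06) and Psmb6 (-0.04) were below 0 as well, and Psmb7 (0.10) was above it. Psmb10 fell 1.17-fold, from 70.3, 69.2 and 67.3 CPM in male 1 to 3 to 53.7, 58.4 and 64.0 CPM in female 1 to 3 (log2 -0.23, SE 0.071, adjusted p = 0.0347 by edgeR). Psmb9 (-0.17, adjusted p = 0.140) and Psmb8 (-0.13, adjusted p = 0.384) did not pass. The call on Psmb10 was lost without male 1, 2 or 3 (adjusted p = 0.126, 0.105 and 0.0860) or female 1 or 2 (0.159 and 0.101), and without female 3 all 3 genes passed (0.0284 for Psmb8, 0.00917 for Psmb9). B cell and dendritic cell markers, whose cells also express these genes, were lower in the same libraries, and their part was not tested.

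Per length, Psmb10 made up 53.2 ± 1.61% of the pair with Psmb7 in the libraries labelled male and 47.4 ± 3.37% in those labelled female (SD, n = 3). Psmb9 made up 33.8 ± 1.08% and 31.9 ± 0.582% of the pair with Psmb6. The groups did not overlap for these pairs, with the gap for Psmb10 at its smallest in female 3 (51.2% against 52.0% in male 3). Psmb8 made up 56.6 ± 3.89% and 55.7 ± 2.12% of the pair with Psmb5, with overlap. These shares depend on the annotated length. With merged exons Psmb10 made up 72.0 ± 1.30% and 67.1 ± 2.94% of its pair, Psmb9 30.7 ± 1.02% and 28.9 ± 0.550%, and Psmb8 38.6 ± 3.79% and 37.7 ± 2.01%. Which subunit of a pair is the more abundant therefore turned with the length for Psmb8, and for Psmb10 in the libraries labelled female, while the overlap of the groups was the same under both lengths. The difference in shares between groups was not tested.

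**Figure D5:**
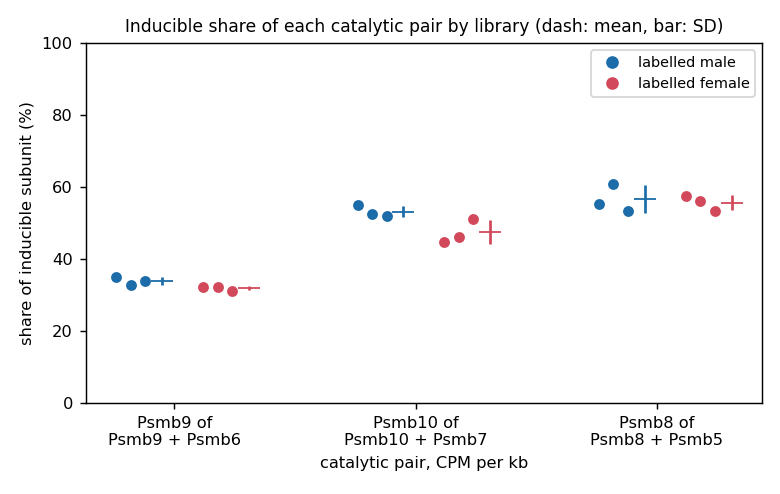
Share of the interferon-inducible subunit in each catalytic pair, from CPM per kb of principal transcript, for each library (points) with the mean (dash) and SD (bar) per label group. The Psmb10 share is 44.8 to 51.2% in the libraries labelled female and 52.0 to 55.0% in those labelled male, and the Psmb8 shares overlap.

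Genes around the proteasome were read from lists of assembly factors, partners, regulators and ubiquitin genes. Beside the counts of these lists, edgeR called 7.29% of all genes higher and 6.62% lower at an adjusted p under 0.05. An unadjusted p under 0.05 was reached by 3282 of 11903 genes. Of 7 genes for core assembly and inhibition (Pomp, Psmg1 to Psmg4, Akirin2 and the inhibitor Psmf1), 0 passed by edgeR, 0 had an unadjusted p under 0.05 and 0 passed in DESeq2. The largest change was that of Psmg3, at 2.43 to 3.22 CPM per library (log2 -0.15, SE 0.24, adjusted p = 0.736). Of 12 receptors, deubiquitinases and subunits with other names, 1 rose. This was Rad23b, a shuttle that brings ubiquitinated proteins to the cap, from 144 ± 2.40 to 167 ± 11.5 CPM (log2 0.21, SE 0.062, adjusted p = 0.0292). The Rad23b call was lost without male 1, 2 or 3 (adjusted p = 0.0991, 0.0883 and 0.134) or female 1 or 2 (0.0881 and 0.139). Usp14, a deubiquitinase of the cap named after its values were seen, missed narrowly (0.21, adjusted p = 0.0565) and passed without female 3 (0.00122).

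Of 10 regulators of the NRF1 route, 1 rose and 1 fell. Ngly1, the glycanase that NRF1 needs to become active, was at 38.7, 37.5 and 39.6 CPM in male 1 to 3 and at 46.1, 47.9 and 47.9 CPM in female 1 to 3, without overlap (log2 0.29, SE 0.072, adjusted p = 0.00900 by edgeR). It missed the threshold without male 2 (0.0559). Maff, a small Maf partner, fell from 13.8 ± 1.47 to 10.4 ± 1.14 CPM (log2 -0.41, adjusted p = 0.0418), a call lost without male 1 (0.1696), male 3 (0.116), female 1 (0.135) or female 2 (0.153) and in DESeq2 (0.0639). Nfe2l1 itself changed by 0.18 (adjusted p = 0.119) and Nfe2l2 by -0.16 (adjusted p = 0.0808). Without female 3 both passed, with adjusted p = 0.0361 and 0.00191, and Nfe2l1 also passed without male 2 (0.0470).

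Among genes of ubiquitin and its activation, the polyubiquitin gene Ubb did not reach the threshold, with a change of -0.20 (log2, SE 0.066, adjusted p = 0.0513 by edgeR). It passed in DESeq2 (0.0260) and without female 3 (7.17e-05). Its levels were 940.03, 860.1 and 957 CPM in male 1 to 3 and 760.1, 761 and 884 CPM in female 1 to 3, and the groups overlapped because female 3 lay above male 2. Rps27a, which encodes ubiquitin joined to a ribosomal protein, changed by 0.06 (adjusted p = 0.604 by edgeR).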

How the data were processed

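Poly-A RNA was sequenced from 6 libraries. Per the submitters' processing notes, cutadapt 1.15, HISAT2 2.0.5 and GRCm39 were used, with the counter and its treatment of strand and of near-identical copies not given in the sources used here. Raw counts, as the authors deposited them, carried no normalization. Symbols and lengths came from GENCODE vM21 (an older build), which named 21898 identifiers and holds 4 genes named as pseudogenes of members. Members and gene lists were chosen with earlier results of these data known.

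Counts were fitted with edgeR 4.0.16 in R 4.3.3 (TMM, quasi-likelihood test, filterByExpr at 10 counts, Benjamini-Hochberg adjustment over 11903 genes, threshold 0.05, group as the only term), and tested on simulated data. CPM use TMM library sizes. The SE is the change divided by the root of F. The named genes are called members, the catalytic subunits, the activators and the largest change per subcomplex, and of other lists the called genes or the largest change; genes named beyond these were picked with their values in view. Alternatives were DESeq2 1.42.0, its size factors, other filters, a fit without mitochondrially encoded genes, a replicate block, each library left out and, added after seeing the data, merged exons as length. A result from the ubiquitin list is not reported here.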

Additional observations from a re-analysis of the deposited data

How the results depend on the processing

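Of the members, 33 kept their side of the threshold under all 12 alternatives to the test, and Psmc6, Psmd1, Psmd2, Psme2, Psme3 and Psme4 did not. The number called higher was 2 in DESeq2, 2 with no filter, 2 with the replicate block and 0 without mitochondrially encoded genes, and it ranged from 0 to 5 when 1 library was left out. The number called lower ranged from 0 to 1. Over all genes, the 12 alternatives gave 439 to 1439 higher and 467 to 1269 lower, and these ends came from leaving out 1 library. Of all genes called, 55.2% were higher with no filter and 52.4% with the replicate block. Without mitochondrially encoded genes 49.9% of the called genes were higher. For the surrounding genes the alternatives gave 1 to 5 higher and 0 to 7 lower. The cause of these shifts was not tested. The median change of the members stayed between 0.05 and 0.09, and the ratio of their summed CPM, labelled female over labelled male, between 1.02 and 1.06. The replicate numbers pair nothing in the labels. Deviations of same-numbered libraries correlated at -0.04, 0.06 and 0.06, and male 1 correlated best with female 3. With the replicate block Psmd2 passed (adjusted p = 0.0413) and Psmc6 remained called. Depth limits Psma8, with 21 to 53 counts per library.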
